A study of Mus musculus with 2 samples.

Results

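Tight junctions seal the space between neighbouring cells of the retinal pigment epithelium (RPE), the pigmented layer that forms the outer blood-retina barrier between the photoreceptors and the fenestrated vessels of the choroid. The 9 genes described here are 6 claudins (Cldn1, Cldn2, Cldn3, Cldn7, Cldn10 and Cldn19), occludin (Ocln), the scaffold protein ZO-1 (Tjp1) and junctional adhesion molecule A (F11r). They were taken by name from the count table, where all 9 of the 9 names were found among 23420 gene rows, and all 9 passed the filter on low counts, as did 15796 genes in all. Polyadenylated RNA came from the RPE-choroid of untreated mice 11 to 13 months old, with the tissue of 2 eyes pooled per library and 3 animals per genotype. Knockout-labelled libraries are those labelled AhR -/- (strain B6.129-AhRtm1Bra/J, a targeted germline allele of Ahr, which encodes the aryl hydrocarbon receptor). Wild-type libraries are those labelled AhR +/+ (strain C57BL6/J), and whether any were littermates is not in the labels. The comparison asks which transcripts of this tissue differ between the genotypes. Strain differs along with genotype in every library, so differences by strain and by genotype cannot be told apart.

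Claudins are membrane proteins with 4 passes through the membrane, and their mix sets which ions and solutes can cross between cells. Some act mainly as barriers and others form pores. Occludin is a further membrane protein of the strands, junctional adhesion molecule A is an adhesion protein of the immunoglobulin family that helps place the junction and set cell polarity, and ZO-1 ties the claudins to the actin skeleton. The aryl hydrocarbon receptor is a transcription factor that, with its partner Arnt, binds DNA at sites holding the core letters GCGTG.

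Libraries held 18058725 to 28692624 counts in genes, and the values of a group stand throughout in the order of animals 1, 2 and 3. Ahr itself stood at 41.4, 45.4 and 40.6 CPM (counts scaled to library size) in the knockout-labelled libraries and at 19.7, 20.2 and 26.0 CPM in the wild type. It was thus counted at a higher level in the libraries labelled knockout, and since reads were summed over the full gene, loss of the targeted part could not be looked for and the genotypes stay unchecked. Every direction below rests on those labels. All 12 RPE markers were present, with Rpe65 between 1326 and 2987 CPM, and none was at 0. Their summed level was 37560, 21535 and 23406 CPM in the knockout-labelled and 28950, 39812 and 34380 CPM in the wild-type libraries. Markers of other tissues were present as well, among them all 14 of the epithelium of cornea and conjunctiva, which lies outside the dissected tissue, and all 8 of Schwann cells. The red cell genes Hbb-b1 and Alas2 summed to 1060, 55.7 and 77.1 CPM in the knockout-labelled and to 4.29, 20.1 and 33.7 CPM in the wild-type libraries, with Hba-a1 and Hba-a2 at 0 in all 6. Reads not uniquely aligned were tallied apart from the genes, so a count of 0 does not show that a transcript was absent. Such reads made up 22.9% to 25.1% of the sum of all rows in the knockout-labelled and 18.7% to 19.4% in the wild-type libraries. The groups did not overlap in either measure, whose part in the values of the members was not tested. In bulk tissue, fewer cells of a type and less RNA per cell cannot be told apart.

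The promoter sequences of 5 members are shown because the targeted factor binds DNA at a known core and because these 5 genes had the lowest unadjusted p-values of the 9 in the comparison of genotypes. The sequences are those of RefSeq (build GRCm38.p6), read 5′ to 3′ on the gene's strand, and end just before the RefSeq start site or, for F11r, before the start of the GENCODE gene, which lies farther upstream. Capitals mark GCGTG, or CACGC where the core lies on the opposite strand.
Cldn7, chr11:69964529-69964778, plus strand: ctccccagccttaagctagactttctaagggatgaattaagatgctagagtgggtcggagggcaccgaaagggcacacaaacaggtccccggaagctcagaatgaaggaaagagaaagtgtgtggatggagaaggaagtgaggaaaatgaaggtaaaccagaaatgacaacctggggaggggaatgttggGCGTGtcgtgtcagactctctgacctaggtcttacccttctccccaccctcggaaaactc
F11r, chr1:171437311-171437534, plus strand: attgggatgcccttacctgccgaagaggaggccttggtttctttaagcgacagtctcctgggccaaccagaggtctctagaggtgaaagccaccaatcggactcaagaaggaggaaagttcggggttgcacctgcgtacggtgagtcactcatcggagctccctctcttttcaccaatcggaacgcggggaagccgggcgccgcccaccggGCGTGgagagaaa
Ocln, chr13:100552719-100552968, minus strand: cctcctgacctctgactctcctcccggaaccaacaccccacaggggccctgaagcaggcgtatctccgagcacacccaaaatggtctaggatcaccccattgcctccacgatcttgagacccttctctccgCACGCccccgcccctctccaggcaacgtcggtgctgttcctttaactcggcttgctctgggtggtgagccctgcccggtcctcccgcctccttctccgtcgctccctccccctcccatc
Cldn3, chr5:134985964-134986213, plus strand: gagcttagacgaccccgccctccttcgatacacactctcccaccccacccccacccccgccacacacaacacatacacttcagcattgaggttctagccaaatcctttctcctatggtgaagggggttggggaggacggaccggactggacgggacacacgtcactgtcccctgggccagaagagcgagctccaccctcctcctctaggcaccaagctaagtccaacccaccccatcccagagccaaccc
Cldn2, chrX:139800558-139800807, plus strand: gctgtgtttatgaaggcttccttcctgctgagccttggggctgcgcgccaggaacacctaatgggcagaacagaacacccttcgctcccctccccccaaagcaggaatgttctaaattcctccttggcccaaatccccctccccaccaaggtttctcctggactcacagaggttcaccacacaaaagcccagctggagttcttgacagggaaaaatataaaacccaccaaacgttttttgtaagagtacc

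A core lay 60 bases upstream of the RefSeq start site in Cldn7, 39 bases upstream in F11r and, on the opposite strand, 119 bases upstream in Ocln. The shown stretches of Cldn3 and Cldn2 hold no such letters. RefSeq promoters were found for all 9 members, 13 promoters in all, and 7 of the 13 held GCGTG on either strand within 250 bases upstream of the start. These 7 belong to 4 genes, Cldn7, F11r, Ocln and Cldn10. In the same window it was held by 28.2% of all 32851 RefSeq promoters and, counted by gene, by 30.9% of 27025 genes, against 4 of the 9 members. A match is a description of letters and does not show binding.

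Cldn1 gave the highest level of the 9 genes per kilobase of exon. Over all 6 libraries its mean was 94.9 CPM per kb (range 78.5 to 123), followed by F11r at 42.5 (29 to 66.9), Cldn7 at 32.1 (12.5 to 50.3), Cldn2 at 23.0 (16.5 to 34.2) and Tjp1 at 20.4 (16.3 to 25.4). Cldn3 (5.96), Cldn10 (5.79), Ocln (3.70) and Cldn19 (2.67 CPM per kb) were lower. The ranges of Cldn1 and F11r did not touch, nor did those of Tjp1 and Cldn3. Every other pair of neighbours in this order overlapped over the 6 libraries.

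**Figure D1:**
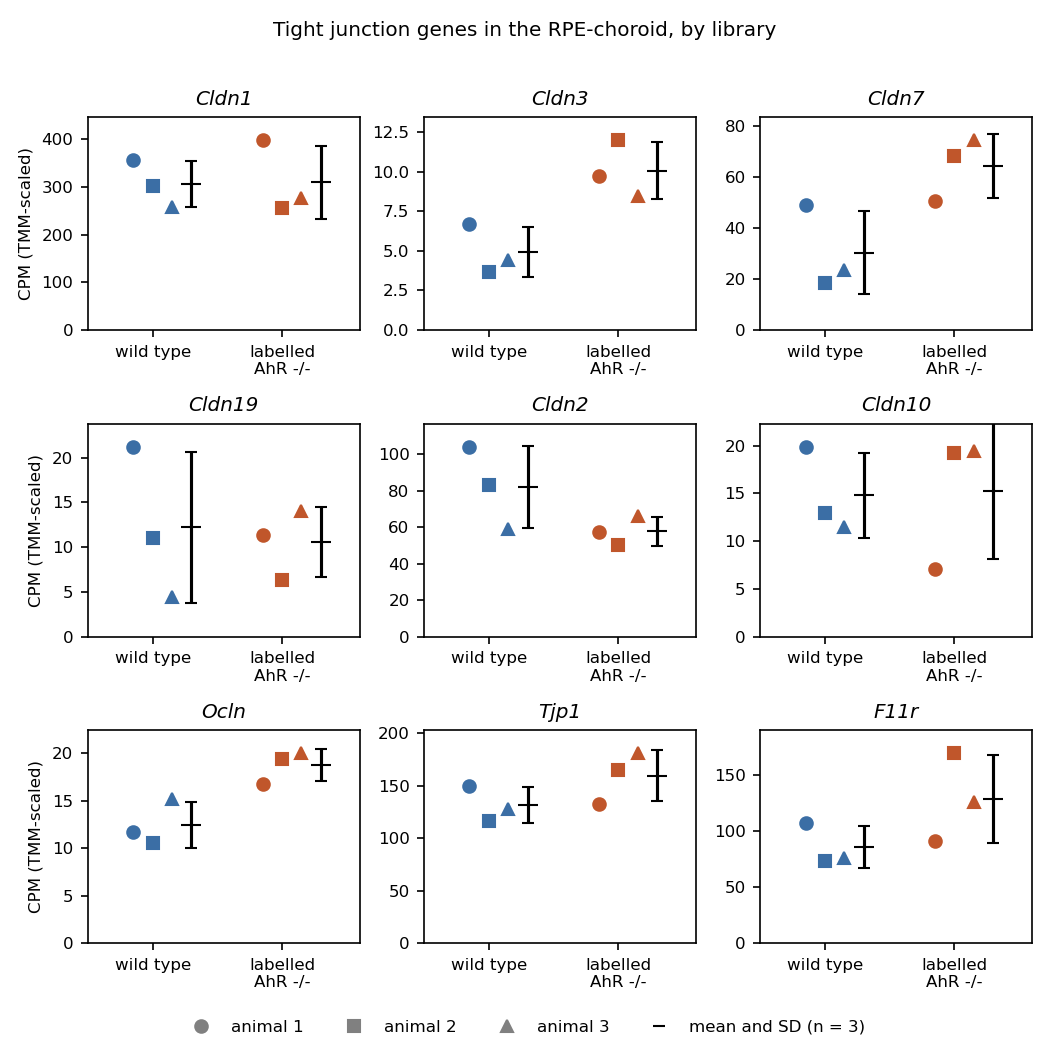
TMM-scaled CPM of the 9 tight junction genes (vertical axis, from 0) in the 3 wild-type and the 3 knockout-labelled libraries, with symbols for animals 1 to 3 and, beside them, the mean and SD of each group (n = 3). Cldn3, Cldn7 and Ocln were higher in every knockout-labelled library than in any wild-type library, for Cldn7 by the narrow gap between 48.9 and 50.4 CPM.

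Between the genotypes, 0 of the 9 members were called by edgeR's quasi-likelihood test at a Benjamini-Hochberg adjusted p under 0.05, where 0.0506% of all genes tested were called. DESeq2 called 1 member, Cldn7, and 3.12% of all genes. At an unadjusted p under 0.05 the edgeR test held 5 of the 9 members, against 14.2% of all genes. Of these, 4 had higher values in the knockout-labelled libraries (Cldn3, Cldn7, Ocln and F11r; 7.55% of all genes in that direction) and 1 had lower values (Cldn2; 6.62%). The median log2 fold change, knockout-labelled over wild type, was 0.28 over the 9 members and 0.01 over all genes. The median size of the log2 fold change without its sign was 0.51 over the members and 0.23 over all genes. Libraries of the 2 groups did not overlap for 3 members, all higher in the knockout-labelled libraries, against 20.0% of all genes in either direction and 10% in that one (9.96% in the other). The members and the other gene lists were chosen with earlier results of these data known, so their counts beside those of all genes are a description.

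Among the barrier-forming claudins, Cldn7 showed the largest log2 fold change of the 9 members. Cldn7, found in many epithelia, spans 69964779 to 69967885 of chromosome 11 (plus strand, GRCm38). Its level was 50.4, 68.3 and 74.4 CPM in the knockout-labelled libraries and 48.9, 18.4 and 23.7 CPM in the wild type. Knockout-labelled animals 2 and 3 stood well above wild-type animals 2 and 3, whereas animal 1 of each group lay at almost the same level. The group means were 64.3 ± 12.5 and 30.3 ± 16.3 CPM (SD, n = 3 each), and the log2 fold change was 1.08 ± 0.33 (SE; adjusted p = 0.219, edgeR). Its adjusted p was 0.0346 in DESeq2 and 0.0606 in the edgeR exact test, which called 2.26% of all genes. The authors' deposited table gives a log2 fold change of 1.07 for Cldn7, with its sign turned to knockout over wild type, and an FDR of 0.00612, and the authors' deposited table has 2.37% of genes at an FDR under 0.05 (1.62% of genes higher in the knockout). With the gene count total alone as the scale, the groups overlapped by a small margin, at 49.4 CPM for the lowest knockout-labelled library and 49.5 CPM for the highest wild-type library.

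Cldn3, a barrier-forming claudin of epithelia, lies at 134986214 to 134987472 of chromosome 5 (plus strand, a single exon). It stood at 9.76, 12.0 and 8.46 CPM in the knockout-labelled libraries and at 6.73, 3.68 and 4.42 CPM in the wild type. The lowest knockout-labelled library exceeded the highest wild-type library under each of the 4 scalings tried. The means were 10.1 ± 1.77 and 4.94 ± 1.59 CPM (SD, n = 3 each), and the log2 fold change was 1.02 (SE 0.31; adjusted p = 0.217, edgeR). An antisense gene shares 40 bases with its exon, and without a stated strand setting reads there cannot be assigned. Its reads were few, between 89 and 233 per library.

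Cldn1, which seals the barrier of the epidermis and was the most abundant of the 6 claudins, lies at 26356642 to 26371841 of chromosome 16 (minus strand). Its level was 398, 255 and 277 CPM in the knockout-labelled and 357, 303 and 259 CPM in the wild-type libraries. In both groups animal 1, the female, was highest, and the ranges covered each other almost fully. The log2 fold change was 0.02 ± 0.20 (SE; adjusted p = 0.977, edgeR) and its sign turned between fits, from -0.20 without knockout-labelled animal 1 to 0.16 with the cornea and conjunctiva marker level as a covariate. Cldn19, a claudin of the RPE, of kidney tubules and of Schwann cells whose mutation in people affects kidney and eye, lies at 119255414 to 119262438 of chromosome 4 (plus strand). It stood at 11.3, 6.31 and 14.0 CPM in the knockout-labelled libraries and at 21.2, 11.0 and 4.46 CPM in the wild type. The wild-type group held both the highest and the lowest library, and the log2 fold change of -0.21 ± 0.50 (SE; adjusted p = 0.892, edgeR) was 0.45 when wild-type animal 1 was left out and -0.63 without animal 3 of that group. An antisense gene shares 90 bases with the exons of Cldn19.

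Beside Cldn19, summed Schwann cell markers stood at 757, 537 and 520 CPM in the knockout-labelled libraries and between 701 and 747 CPM in the wild type. Markers of ciliary and iris epithelium summed to 903, 1035 and 1336 CPM in the knockout-labelled and to 1357, 1183 and 955 CPM in the wild-type libraries, with 4 of the 7 markers higher and 3 lower in the knockout-labelled group. Gja1 and Aqp1 had the highest levels of these markers. Knockout-labelled animal 1 was the lowest library in that sum and not in Cldn19, whereas wild-type animal 1 was the highest in both. The marker Zic2 was highest in wild-type animal 1 (34.5 CPM) and lowest in wild-type animal 3 (8.57 CPM), as was Cldn19. The part of either cell type in the Cldn19 values was not tested.

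Of the claudins that form channels, Cldn2 had lower means in the knockout-labelled libraries and Cldn10 had nearly equal ones. Cldn2, whose protein forms a pore for small cations and water, lies at 139800828 to 139811386 of chromosome X (plus strand). Its level was 57.1, 50.2 and 66.1 CPM in the knockout-labelled libraries and 104, 83.2 and 59.1 CPM in the wild type. Wild-type animals 1 and 2 stood above every knockout-labelled library, and wild-type animal 3 lay among them. The means were 57.8 ± 8.0 and 82.1 ± 22.6 CPM (SD, n = 3 each), and the log2 fold change was -0.51 ± 0.20 (SE; adjusted p = 0.314, edgeR). The sign held in all 17 other fits, where the log2 fold change ran from -0.72 to -0.30 with the lowest adjusted p at 0.223. The value nearest 0, -0.30, was had without wild-type animal 1. The summed RPE markers, of which Ttr and Rgr were the highest, were lower in knockout-labelled animals 2 and 3, at 21535 and 23406 CPM, than in the other 4 libraries. Knockout-labelled animal 1 and wild-type animal 3, with Cldn2 at 57.1 and 59.1 CPM, had marker sums of 37560 and 34380 CPM. The part of the RPE markers in the Cldn2 values was not tested.

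Cldn10 has splice forms that pass either cations or anions, which gene counts do not separate. It lies at 118787908 to 118875489 of chromosome 14 (plus strand). It stood at 7.08, 19.2 and 19.5 CPM in the knockout-labelled libraries and at 19.9, 13.0 and 11.5 CPM in the wild type. Knockout-labelled animal 1 was the lowest of all libraries, and the other 5 did not separate by genotype. The log2 fold change of 0.04 ± 0.38 (SE; adjusted p = 0.972, edgeR) was 0.38 without that library and -1.0 with the surface epithelium markers as a covariate (adjusted p = 0.481).

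Taken as a make-up, Cldn1 gave more than any other of the 6 claudins in every library. Each claudin's CPM per kb was divided by the sum over the 6. Cldn1 made up 65.0%, 49.2% and 48.8% in the knockout-labelled libraries and 56.3%, 65.0% and 64.2% in the wild type. Cldn7 made up 18.1%, 29% and 28.8% against 17.0%, 8.69% and 12.9%, which placed it above Cldn2 in every knockout-labelled library and below Cldn2 in every wild-type library. Cldn2 made up 9.94%, 10.3% and 12.4% in the knockout-labelled libraries and 17.5%, 19.0% and 15.6% in the wild type. These shares did not overlap, whereas the CPM of Cldn2 did. By CPM, groups without overlap were found for 20.0% of all genes. In wild-type animal 1 the shares of Cldn7 and Cldn2 were close, at 17.0% and 17.5%. Before division by exon length, Cldn7 was below Cldn2 in knockout-labelled animal 1 (50.4 and 57.1 CPM). Cldn3, Cldn10 and Cldn19 each stayed under 6%. Shares of a sum depend on each other, since more Cldn7 alone lowers the share of Cldn2, and no test was run on them. The summed level of the 6 claudins was 174 ± 14.5 and 154 ± 36.7 CPM per kb (SD, n = 3 each).

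**Figure D2:**
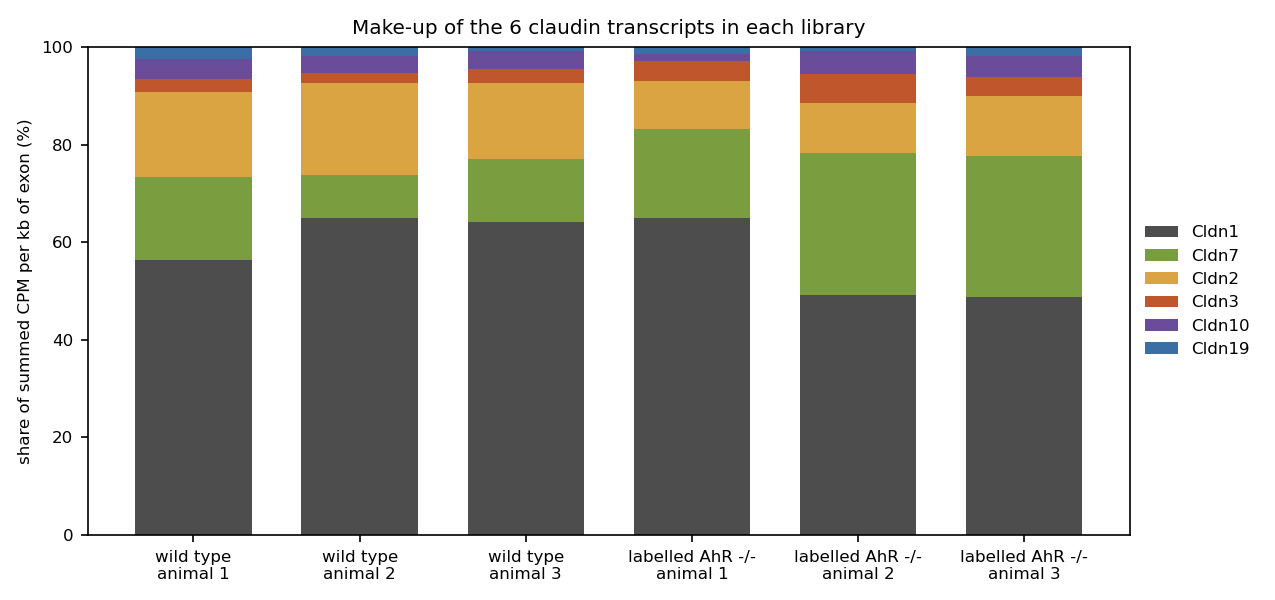
Share of each claudin (vertical axis, % of the summed CPM per kb of exon over the 6 claudins) in each of the 6 libraries. Cldn7 made up 18.1% to 29% of the sum in the knockout-labelled and 8.69% to 17.0% in the wild-type libraries, and Cldn2 9.94% to 12.4% and 15.6% to 19.0%.

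Ocln was higher in each knockout-labelled library than in any wild-type library. The gene lies at 100496507 to 100552718 of chromosome 13 (minus strand). It stood at 16.8, 19.4 and 20.0 CPM in the knockout-labelled libraries and at 11.7, 10.5 and 15.2 CPM in the wild type. The means of 18.7 ± 1.72 and 12.5 ± 2.44 CPM (SD, n = 3 each) gave a log2 fold change of 0.58 (SE 0.21; adjusted p = 0.263, edgeR). Its log2 fold change stayed between 0.43 and 0.73 over all 17 other fits, with adjusted p from 0.121 to 0.775.

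F11r, at 171437535 to 171464603 of chromosome 1 (plus strand), stood at 90.6, 169 and 126 CPM in the knockout-labelled libraries and at 107, 73.0 and 76.1 CPM in the wild type. Knockout-labelled animals 2 and 3 were above every wild-type library, and knockout-labelled animal 1 was below wild-type animal 1. The means of 129 ± 39.0 and 85.3 ± 18.7 CPM (SD, n = 3 each) gave a log2 fold change of 0.59 ± 0.23 (SE; adjusted p = 0.305, edgeR). Without knockout-labelled animal 1 it was 0.79 (adjusted p = 0.0543), and without knockout-labelled animal 2 it was 0.35 (adjusted p = 0.658). Tjp1, at 65296165 to 65527781 of chromosome 7 (minus strand), stood at 133, 165 and 181 CPM against 150, 116 and 128 CPM in the same order of animals. Its groups overlapped, and the log2 fold change was 0.28 ± 0.16 (SE; adjusted p = 0.452, edgeR).

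Pairs of members ran from parallel to opposite over the 6 libraries. On the log2 CPM scale Pearson's r between Cldn3 and Cldn7 was 0.93, between Cldn7 and Tjp1 0.91, between F11r and Tjp1 0.88 and between Cldn7 and F11r 0.87 (n = 6 libraries, as a description). Cldn2 went with Cldn19 (0.74) and opposite to Ocln (-0.80), and Cldn10 was opposite to Cldn1 (-0.49). Cldn1 was near 0 against Cldn7 (0.06) and below 0 against Ocln (-0.34) and F11r (-0.29), and Cldn10 was near 0 against Ocln (0.07). The 6 points of each pair share their libraries, their depth and the genotype groups, so that members higher in one genotype also correlate through it.

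Markers of cornea and conjunctiva epithelium moved with several of these members. Their summed level was 4011, 15867 and 12402 CPM in the knockout-labelled and 6581, 2688 and 3161 CPM in the wild-type libraries. All 14 of the 14 markers had a log2 fold change above 0 (median 1.32), with 12 at an unadjusted p under 0.05 and 0 called by edgeR. The corneal keratin gene Krt12 was at 206, 4103 and 2903 CPM in the knockout-labelled libraries, and 804, 511 and 302 CPM in the wild-type libraries, and no marker of the list was at 0. The order of the 6 libraries by F11r was the same as their order by the summed markers. With the mean log2 CPM of the markers as a covariate, the log2 fold change of F11r was 0.01, that of Tjp1 -0.03 and that of Cldn7 0.43, while Cldn3 was at 0.71 and Ocln at 0.47 (edgeR adjusted p between 0.726 and 0.994 for these 5).

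By the summed markers, the libraries in the middle were wild-type animal 1 (6581 CPM) and knockout-labelled animal 1 (4011 CPM). In these libraries, in that order, Cldn3 was at 6.73 and 9.76 CPM, Ocln at 11.7 and 16.8 CPM, Cldn7 at 48.9 and 50.4 CPM and F11r at 107 and 90.6 CPM. These are single libraries with no test, and the part of surface epithelium in the values of the members was not tested.

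**Figure D3:**
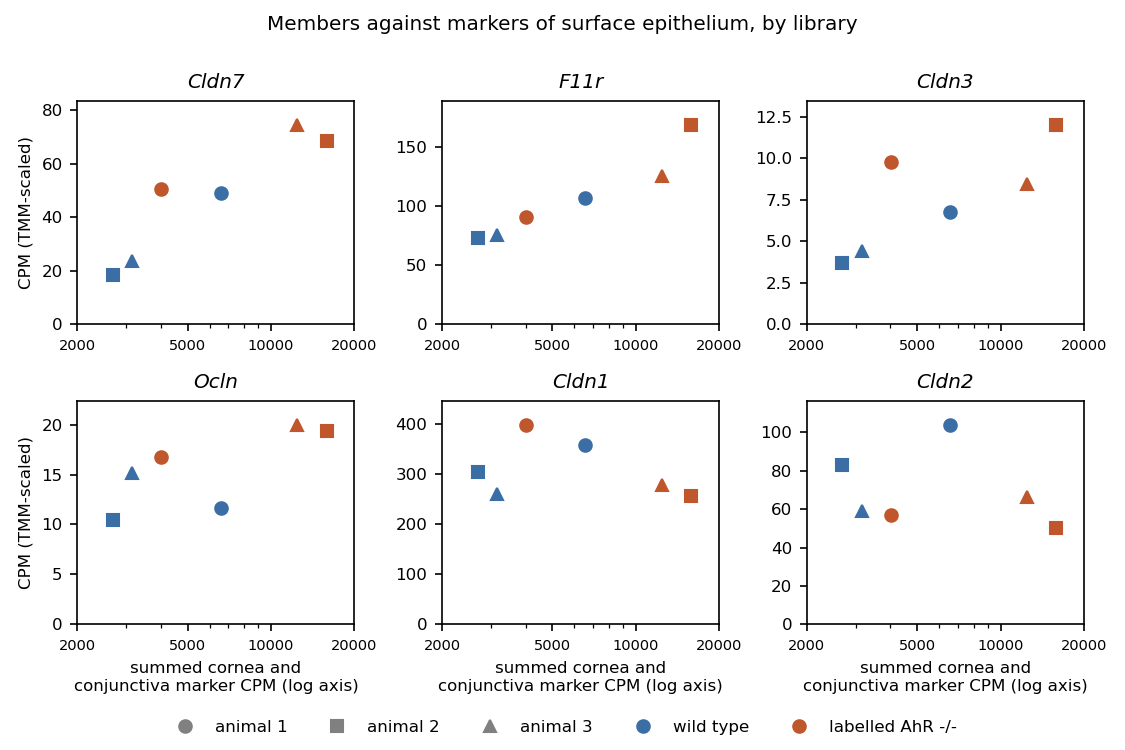
TMM-scaled CPM of 6 members (vertical axes, from 0) against the summed CPM of the 14 markers of cornea and conjunctiva epithelium (horizontal log axis) in each library. F11r ran from 73.0 to 169 CPM in the same order as the markers, whereas Cldn1 and Cldn2 did not follow them.

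Beyond the members, not every claudin was looked at. A list of 38 further genes of the junction took in claudins, adhesion proteins, scaffolds and polarity proteins. Of these 31 were tested and 7, all claudins, had too few reads. Cldn6, Cldn14 and Cldn16 had 0 reads in all 6 libraries, and Cldn9, Cldn15, Cldn18 and Cldn20 had at most 18 reads in any. Of the 31 tested, 0 were called by edgeR, 1 by DESeq2 and 1 by the edgeR exact test (Tjp3 in both), where these tests called 0.0506%, 3.12% and 2.26% of all genes. An unadjusted p under 0.05 was found for 9, against 14.2% of all genes, with 7 higher (7.55% of all genes) and 2 lower (6.62%). Their median log2 fold change was 0.13 against 0.01 over all genes, and 21 of the 31 lay above 0 against 8085 of 15796. The most abundant per kilobase of exon were Csda, encoding a Y-box protein that binds ZO-1 (140 CPM per kb), the adhesion molecule gene Jam3 (45.8) and the angiomotin family gene Amotl2 (40.7).

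Among the scaffolds, Tjp3, which encodes ZO-3, had the lowest p of the list. It stood at 34.9, 69.8 and 51.8 CPM in the knockout-labelled libraries and at 28.5, 19.7 and 17.8 CPM in the wild type, with no overlap. The log2 fold change was 1.24 ± 0.27 (SE; adjusted p = 0.140, edgeR), with an adjusted p of 0.00157 in DESeq2 and 0.019 without knockout-labelled animal 1. With the cornea and conjunctiva covariate it was 0.60 (adjusted p = 0.535).

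Among membrane proteins, Cxadr, encoding the coxsackievirus and adenovirus receptor, had a log2 fold change of 0.57 (79.1 ± 15.7 against 53.3 ± 6.01 CPM, SD, n = 3 each, edgeR adjusted p = 0.212). It passed without knockout-labelled animal 1, a fit that called 4.95% of all genes (log2 fold change 0.72, edgeR adjusted p = 0.0258), as did Marveld2, encoding tricellulin (1.22, adjusted p = 0.047), which was chosen after its values were seen. Ildr1, a protein of the corners where 3 cells meet, stood at 14.5 ± 2.99 against 7.28 ± 2.82 CPM (0.99, SD, n = 3 each, edgeR adjusted p = 0.236). Cldn8 was scarce, at 65, 86 and 78 reads in the knockout-labelled and 32, 2 and 24 in the wild-type libraries (2.31, edgeR adjusted p = 0.258). Cxadr, Ildr1 and Cldn8 were named by a rule that asks for groups without overlap, as 20.0% of all genes have. For Cxadr the gap was 61.0 against 60.1 CPM, and scaled by the gene count total the groups overlapped (59.8 against 60.8 CPM).

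The 3 polarity genes named here differed in direction. Mpp5, encoding the scaffold PALS1, stood at 64.3 ± 4.34 against 51.2 ± 5.58 CPM (0.33, SD, n = 3 each, edgeR adjusted p = 0.310). Prkcz, an atypical protein kinase C, stood at 22.2 ± 2.39 against 30.4 ± 3.66 CPM (-0.46, SD, n = 3 each, edgeR adjusted p = 0.270). Mpdz, a scaffold with many PDZ domains, stood at 62.1 ± 1.58 against 76.5 ± 6.08 CPM (-0.30, SD, n = 3 each, edgeR adjusted p = 0.299). The 3 were named by the same rule, and the sign of each held in all 17 other fits.

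**Figure D4:**
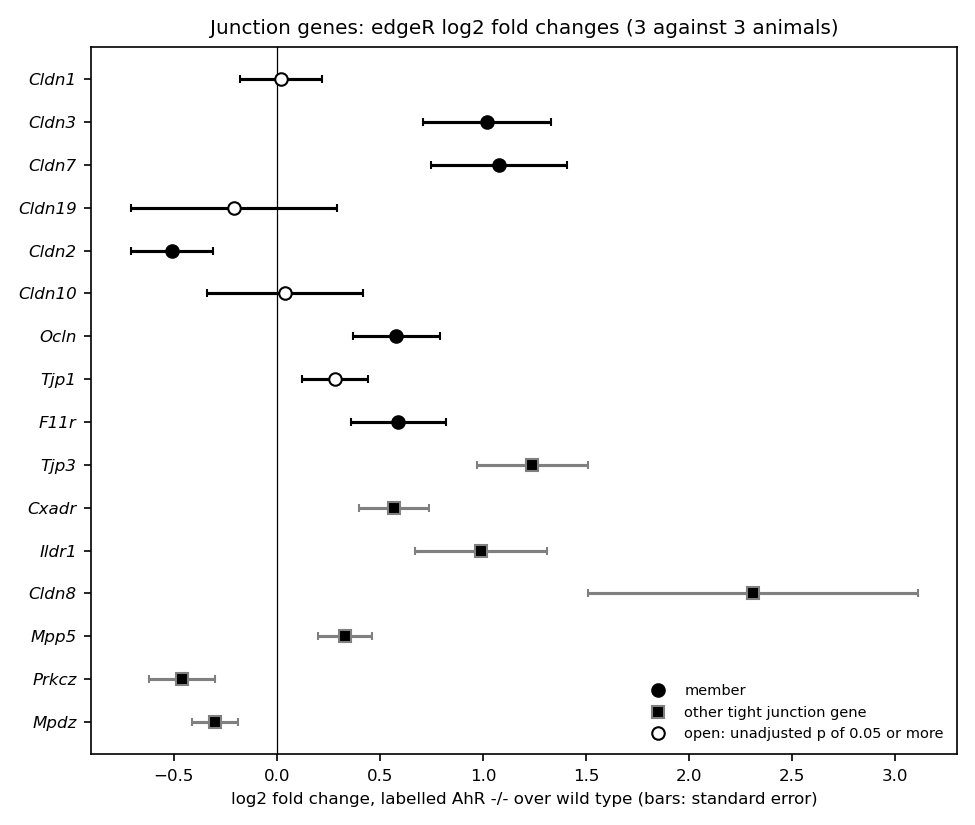
Log2 fold changes, knockout-labelled over wild type (horizontal axis), with their standard errors, from edgeR for the 9 members (circles) and 7 further tight junction genes (squares), filled where the unadjusted p was under 0.05. Cldn7 (1.08) and Cldn3 (1.02) lie farthest to the right among the members and Cldn2 (-0.51) farthest to the left.

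Adherens junctions, the cadherin contacts just below the tight junction, were read from 10 genes. All 10 were tested, 0 were called by edgeR and by DESeq2, and 2 had an unadjusted p under 0.05, 1 in each direction, against 14.2% of all genes. These were Cdh3 (lower) and Pvrl2 (higher, log2 fold change 0.56, edgeR adjusted p = 0.327). The most abundant per kilobase of exon were the catenin genes Ctnnb1 (342 CPM per kb) and Ctnna1 (144) and the plakoglobin gene Jup (82.2). Cdh3, which encodes P-cadherin, a cadherin of the RPE, stood at 214, 112 and 147 CPM in the knockout-labelled libraries, and 245, 261 and 191 CPM in the wild-type libraries (log2 fold change -0.56, SE 0.23, edgeR adjusted p = 0.327). Without knockout-labelled animal 1, Cdh3 was the 1 gene of the list to pass (-0.84, edgeR adjusted p = 0.0384). Cdh1, encoding E-cadherin of surface epithelia, stood at 112, 157 and 166 CPM against 139, 93.2 and 87.9 CPM (0.45, edgeR adjusted p = 0.376). Both cadherin genes had overlapping groups, and both were named after their values were seen.

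The genes closest in pattern to each member were found by Pearson's correlation of log2 CPM over the 6 libraries among 13690 genes with a mean of at least 1 CPM, leaving out predicted, ribosomal and pseudogene names. The closest to Cldn7 was Fbxo32 (r = 0.996), followed by Coro2a (0.995) and Filip1l (0.993). The closest to F11r were Syt16 (0.999), Egln3 (0.997) and Ccng2 (0.996), and 248 genes had an r above 0.95 with it, the most of any member. Cldn1 had the fewest, 19, led by Cd300a and Elf4 (0.990 each) and Ifrd2 (0.983). Cldn2 was closest to Slc6a17 (0.992), Ptgs2 (0.990) and Zadh2 (0.988), and Cldn19 to Adamts1 (0.997), Col9a2 (0.987) and Shisa9 (0.986). Cldn3 was closest to Cnih4 (0.995), Cstf1 (0.990) and Csnk1g3 (0.989), Cldn10 to Adk (0.995), Plxna4 (0.993) and Lrpprc (0.990), Ocln to Tubg2 (0.997), Katnbl1 (0.995) and Ube2d1 (0.990), and Tjp1 to Lpar5 (0.992), Apaf1 (0.990) and Rpe (0.990). With 6 points per gene and so many genes searched, high values of r are found for every member, and they describe these libraries.

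For Cldn2, Cldn3, Cldn7, Ocln and F11r the sign was the same in all 17 other fits. For Cldn1, Cldn10, Cldn19 and Tjp1 it was the same in 12, 9, 14 and 16 of them. The lowest adjusted p over the 17 fits was 0.0346 for Cldn7, 0.0543 for F11r and 0.0741 for Cldn3, and between 0.121 and 0.583 for the other members.

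**Figure D5:**
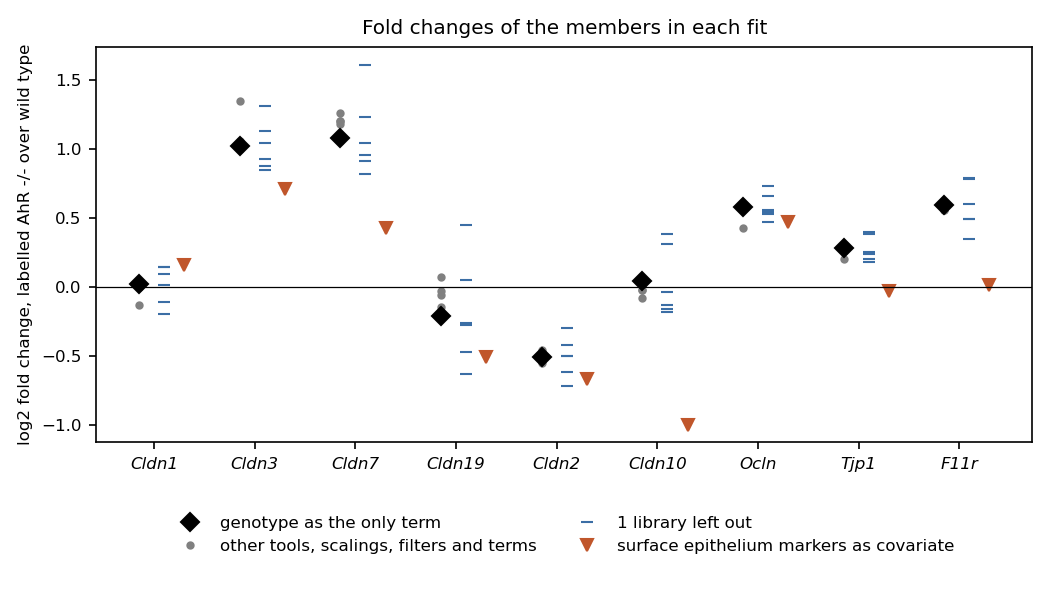
Log2 fold change of each member, knockout-labelled over wild type (vertical axis), with genotype as the only term (diamonds), with other tools, scalings, filters and terms (dots), with 1 library left out (bars) and with the surface epithelium markers as a covariate (triangles). Cldn7 ran from 0.43 to 1.61 and Cldn2 from -0.72 to -0.30, while Cldn1 and Cldn10 lay on both sides of 0.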

How the data were processed

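The authors aligned reads with TopHat and Bowtie to mm10 and made counts per gene with HTSeq, per the submitters' processing notes. For versions, annotation and strand setting nothing was given in the sources used here. The 5 tally rows, which name no gene (35.2% to 40.4% of a library's sum), were left out. The deposited statistics, made by the authors with edgeR, give per gene a log2 ratio, a log2 mean level, a p-value and an FDR. That ratio is wild type over knockout, and its sign was turned here.

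The main test was the quasi-likelihood test of edgeR 4.0.16 (R 4.3.3; glmQLFit, then glmQLFTest) on genotype alone, after filterByExpr (at least 10 counts, 15 in total) and TMM scaling, with Benjamini-Hochberg adjustment over all 15796 genes tested, calls at an adjusted p under 0.05. The fit was tried on simulated counts with a smaller spread between replicates than these data have (biological coefficient of variation 0.28). Its power on these data was thus not tested. Each SE was had from the F statistic, as the size of the log2 fold change over the root of F. Animals are the replicates, and each p-value sets the difference between the genotypes against the spread between animals. CPM are TMM-scaled, and CPM per kb were divided by the exon length in GENCODE M21 (GRCm38), which also gave coordinates and GC content (98.9% of genes tested). Transcript GC content correlated with log2 fold change across genes (Spearman's rho -0.33; genes are not independent replicates). Sex was read from sex-linked transcripts: animal 1 was female in both groups.

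The members and gene lists were chosen with earlier results of these data known. All members were named. From the junction lists, genes with no overlap between groups and an unadjusted p under 0.05 (up to 6 each way) and the 3 with the highest level per kb were named, and for each member the 3 genes closest in pattern. Some genes of these lists are not reported here. The alternatives were RLE and upper-quartile factors, 2 other filters, DESeq2 1.42.0, limma-voom (limma 3.58.1), edgeR's exact test, a block by animal number, sex, the cornea and conjunctiva markers (mean log2 CPM) or a GC correction as further terms, and each library left out. The scalings of the overlap count were chosen after seeing the data.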

Additional observations from a re-analysis of the deposited data

How the results depend on the processing

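The count of members called (0) was 1 with DESeq2 and 0 in the other 16 alternatives. At an unadjusted p under 0.05 the count of members was 5, against 14.2% of all genes. It was 4 with the GC correction, 3 with the replicate block and 2 with the cornea and conjunctiva covariate. With 1 library left out it was 2 to 5, the 2 coming without wild-type animal 2. The share of all genes at that threshold was not taken in these other fits, so these counts are a description. Of the other tight junction genes (0 called), 1 was called with DESeq2 and 1 with the edgeR exact test, and 0 to 3 with 1 library left out, the 3 coming without knockout-labelled animal 1. Of the adherens junction genes 0 to 1 were called with 1 library left out. Over all genes 8 were called. That count was 15 with upper-quartile factors, 22 without the filter, 16 with the CPM filter, 493 with DESeq2, 13 with limma-voom, 357 with the edgeR exact test, 1 with the replicate block, 1 with the sex covariate, 17 with the cornea and conjunctiva covariate, and 0 to 795 with 1 library left out, the 795 coming without knockout-labelled animal 1. The cause of these shifts was not tested.

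Signs turned in these fits. Cldn1 was at -0.000708 without the filter, -0.000857 with limma-voom and -0.13 with the GC correction, and from -0.20 to 0.14 with 1 library left out. Cldn10 was at -0.08 with limma-voom, -0.02 with the replicate block, -0.02 with the sex covariate and -1.0 with the cornea and conjunctiva covariate, and from -0.18 to 0.38 with 1 library left out. Cldn19 was at 0.07 with limma-voom and from -0.63 to 0.45 with 1 library left out. Tjp1 was at -0.03 with the cornea and conjunctiva covariate. Each of these was an uncalled value.

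Same-numbered animals did not deviate together (Pearson's r of deviations from the group means -0.184, -0.232 and -0.154 for animals 1, 2 and 3), so the numbers were not taken as pairs. The replicate block left 0 members called. Depth limits genes with few reads, such as Cldn3 (89 to 233 reads per library).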
